A study of Homo sapiens with 12 samples.

Results

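The epidermal growth factor (EGF) family and its receptors were followed in the immortalised human bronchial epithelial line BEAS-2B. The members were taken by gene name: the 6 ligand genes EREG, AREG, HBEGF, TGFA, BTC and NRG1 and the 3 receptor genes EGFR, ERBB2 and ERBB3. All 9 were found among the 78932 genes of the kava table and all 9 among the 35697 genes of the siRNA table, and 8 of the 9 passed the filter on low values in each, with BTC too low in both. The 12 RNA sequencing libraries formed 4 groups of 3, and every group had been kept for 20 weeks in 0.25 µM K2Cr2O7, a source of the lung carcinogen hexavalent chromium, Cr(VI). The vehicle group received Cr(VI) with 0.05% DMSO and the kava group received Cr(VI) together with kava, a root extract of Piper methysticum, at 25 µg/ml. The control siRNA and SNRPA1 siRNA groups were cells of the vehicle and Cr(VI) line that were transfected with 100 nM of a non-targeting siRNA or of an siRNA pool against SNRPA1, a protein of the U2 spliceosomal particle, and were collected after 48 h. No group without Cr(VI) was analysed here, so every value describes cells already under chromium. The labels do not say whether the 3 libraries of a group came from separate cultures, and p-values measure the spread between these libraries. If each group came from a single long-kept line, a difference between lines cannot be told apart from an effect of kava.

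The ligands of this family are made as membrane-bound precursors, and metalloproteases of the ADAM family cut them loose so that they can act on the same or on neighbouring cells. AREG, TGFA and EPGN bind EGFR, EREG, HBEGF and BTC bind EGFR and ERBB4, and NRG1 binds ERBB3 and ERBB4. ERBB2 has no known ligand and serves as the partner of the other receptors, and ERBB3 has little kinase activity of its own. Bound receptors pair, phosphorylate each other and drive the RAS-MAPK and PI3K-AKT cascades, which in airway epithelium take part in repair, growth and mucus production, and EGFR is a driver gene of lung adenocarcinoma.

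EREG and AREG are neighbours on chromosome 4. On hg38, as given in the siRNA table, EREG (ENSG00000124882) lies at chr4:74365145-74388749, AREG (ENSG00000109321) at chr4:74445136-74455005 and their relative EPGN (ENSG00000182585) at chr4:74308470-74316789, all on the plus strand. BTC (ENSG00000174808) lies at chr4:74744759-74794523 on the minus strand. HBEGF (ENSG00000113070) lies at chr5:140332843-140346603 and TGFA (ENSG00000163235) at chr2:70447284-70553826, both on the minus strand.

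Promoter sequences were available for 7 of the 9 members in RefSeq (GRCh38.p14), as 9 start sites. Those of EREG, AREG, HBEGF and TGFA are shown because these 4 ligands were the members that rose with kava. Each is the 250 bases before the annotated start site, 5′ to 3′ on the strand of the gene: EREG chr4:74364895-74365144, AREG chr4:74444886-74445135, HBEGF chr5:140346604-140346853 and the upstream start site of TGFA chr2:70553827-70554076. Capitals mark matches, on either strand, to TGANTCA (AP-1), TGACGTCA (cyclic AMP response element), GCGTG (core of the dioxin response element) or GGGCGG (GC box).
EREG: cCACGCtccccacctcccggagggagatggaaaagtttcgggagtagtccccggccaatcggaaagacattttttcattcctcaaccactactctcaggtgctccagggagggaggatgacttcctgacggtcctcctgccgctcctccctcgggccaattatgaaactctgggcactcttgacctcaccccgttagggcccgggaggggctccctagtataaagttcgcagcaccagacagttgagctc
AREG: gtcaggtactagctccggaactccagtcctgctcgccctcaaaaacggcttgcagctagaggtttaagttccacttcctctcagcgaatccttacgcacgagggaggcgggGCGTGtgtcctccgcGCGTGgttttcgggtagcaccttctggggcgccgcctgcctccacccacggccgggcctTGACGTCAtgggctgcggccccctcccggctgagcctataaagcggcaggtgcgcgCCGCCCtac
HBEGF: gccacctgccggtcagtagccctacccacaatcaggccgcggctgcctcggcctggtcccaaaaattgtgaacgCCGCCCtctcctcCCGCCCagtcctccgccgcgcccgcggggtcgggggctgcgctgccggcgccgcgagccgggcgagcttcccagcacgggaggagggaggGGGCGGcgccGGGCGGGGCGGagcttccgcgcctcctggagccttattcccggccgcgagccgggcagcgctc
TGFA: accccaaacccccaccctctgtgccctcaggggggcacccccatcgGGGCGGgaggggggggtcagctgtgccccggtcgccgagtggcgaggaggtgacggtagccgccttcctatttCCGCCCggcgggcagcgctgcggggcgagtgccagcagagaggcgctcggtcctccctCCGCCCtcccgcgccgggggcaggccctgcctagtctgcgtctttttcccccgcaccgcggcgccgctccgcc

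Motif matches differed between these promoters. The EREG promoter held 1 match, a GCGTG core at its far end from the start site. AREG held 2 GCGTG cores, a GC box and the full TGACGTCA palindrome, which starts 65 bases before the start site and was found in no other member promoter. HBEGF held 5 GC boxes before its start site, the last 2 of them overlapping, and TGFA held 3. Over all 35116 RefSeq promoters, read from 250 bases before to 50 bases after the start site, 1.85% held TGACGTCA, 36.5% held GCGTG, 45% held GGGCGG and 7.71% held TGANTCA. None of the 4 promoters shown held TGANTCA, which among the members was found at ERBB2 and at an alternative start site of EGFR. These are letter matches in a fixed window and not measured binding.

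The knockdown was checked first. SNRPA1 stood at 67.6, 58.9 and 60.2 CPM (counts per 1000000 reads after TMM scaling) in the control siRNA libraries and at 21.4, 21.0 and 23.7 CPM in the SNRPA1 siRNA libraries, 2.83-fold lower (log2 fold change -1.499 ± 0.0980 SE, edgeR adjusted p = 0.00495). The siRNA libraries held 55003534 to 65385258 counted reads, whereas the kava table gives TPM, a level per transcript length that sums to 1000000 in each library and so carries no depth. Control siRNA replicate 1 stood apart: the SD of log2 differences over tested genes was 0.473 and 0.422 between it and the other control libraries, against 0.264 between those and 0.220 to 0.299 within the other groups, so knockdown results are also given without it. Of 10 bronchial epithelial markers, 7 reached 1 TPM with vehicle and 6 with kava; KRT8, KRT18 and KRT7 were abundant, while CDH1, KRT5 and TP63 were at or near 0 in both groups. Of 9 fibroblast markers, 3 reached 1 TPM with vehicle and 4 with kava, and their summed level was 480 to 513 TPM with vehicle and 502 to 530 TPM with kava, mostly THY1. Within that sum COL1A2 stood at 0.101 TPM with vehicle and 8.54 TPM with kava, and COL1A1 at 95.4 and 86.4 TPM. The 8 blood cell markers summed to 19.5 to 22.2 TPM with vehicle and 31.7 to 34.5 TPM with kava, all but a trace of it CD68 and CD14, with PTPRC, CD3E and HBB at or near 0. Endothelial markers summed to 1.39 to 1.59 TPM with vehicle and 0.399 to 0.479 TPM with kava, mostly CDH5 at 1.21 and 0.270 TPM. Those of differentiated airway epithelium summed to 2.96 to 3.63 TPM with vehicle and 1.36 to 1.76 TPM with kava. Nearly all of that sum was CCDC78, at 3.20 and 1.54 TPM. PECAM1, SCGB1A1, FOXJ1 and MUC5AC were at or near 0 in both groups. The part of these marker differences in the results below was not tested, and in bulk RNA fewer cells of a type and less RNA per cell cannot be told apart.

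With kava, 4 EGFR ligands rose, the ERBB3 ligand NRG1 fell, and the 3 receptors were not called. Of the 8 members tested, 5 were called at an adjusted p under 0.05 (limma on log2(TPM + 1), adjusted over all 13866 tested genes), 4 of them higher and 1 lower. Calls were common in this comparison: 31.9% of all tested genes were called, 16.3% higher and 15.6% lower, and the groups did not overlap in 47.2% of tested genes, 22.6% with kava higher and 24.6% with kava lower. The median log2 fold change was 0.65 over the 5 ligands tested, 0.04 over the 3 receptors and -0.01 over all tested genes. Fold changes on the log2(TPM + 1) scale understate the change of genes near or below 1 TPM, and ratios of mean TPM are therefore given beside them.

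EREG, which encodes epiregulin, was the member with the largest fold change. It stood at 0.981, 0.901 and 0.862 TPM in vehicle replicates 1, 2 and 3 and at 4.00, 3.86 and 3.69 TPM in kava replicates 1, 2 and 3. Every kava library was thus well above every vehicle library, with little spread within either group. The mean rose from 0.915 ± 0.0605 to 3.85 ± 0.157 TPM (SD, n = 3), a ratio of 4.21 (log2 fold change 1.34 ± 0.0883 SE, 95% interval 1.13 to 1.55, limma adjusted p = 5.66e-05). The vehicle mean lay under the cut-off of 1 TPM, so EREG passed the filter only through the kava group. It was also called higher without the filter (limma adjusted p = 0.000846).

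AREG, which encodes amphiregulin, an EGFR ligand of airway and other epithelia, was the noisiest of the ligands called. Vehicle replicates 1, 2 and 3 held 1.53, 0.985 and 1.23 TPM and kava replicates 1, 2 and 3 held 2.89, 2.24 and 2.42 TPM. The groups did not overlap. AREG rose from 1.25 ± 0.275 to 2.52 ± 0.335 TPM (SD, n = 3), a ratio of 2.01 (log2 fold change 0.65 ± 0.128 SE, 95% interval 0.35 to 0.95, limma adjusted p = 0.00798).

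HBEGF, which encodes heparin-binding EGF-like growth factor and is also known as the diphtheria toxin receptor, was the most abundant ligand in every group. It was measured at 18.9, 19.4 and 19.4 TPM with vehicle and at 33.8, 32.1 and 30.9 TPM with kava. The vehicle libraries lay within 1 TPM of each other and all kava libraries lay above them. The mean rose from 19.2 ± 0.278 to 32.3 ± 1.49 TPM (SD, n = 3), a ratio of 1.68 (log2 fold change 0.72 ± 0.0488 SE, limma adjusted p = 6.37e-05).

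TGFA, which encodes transforming growth factor alpha, the autocrine EGFR ligand of many epithelial tumours, followed. It was measured at 1.91, 1.76 and 1.77 TPM with vehicle and at 3.39, 3.47 and 3.05 TPM with kava, again without overlap. TGFA rose from 1.81 ± 0.0825 to 3.30 ± 0.222 TPM (SD, n = 3), a ratio of 1.82 (log2 fold change 0.61 ± 0.0871 SE, limma adjusted p = 0.00188).

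BTC, which encodes betacellulin, was under 0.5 TPM in all 6 libraries and was not tested. It stood at 0.168, 0.119 and 0.174 TPM with vehicle and at 0.374, 0.405 and 0.453 TPM with kava, so that the groups did not overlap at this low level. The mean was 0.153 ± 0.0300 TPM with vehicle and 0.411 ± 0.0400 TPM with kava (SD, n = 3), a ratio of 2.68. In a fit without the filter on low values, which called 11.1% of 32472 genes, 6.14% higher and 4.99% lower, BTC was called higher (log2 fold change 0.29, limma adjusted p = 0.0150).

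NRG1 (ENSG00000157168, chromosome 8), which encodes neuregulin 1, was the only member called lower. Its level was 8.84, 8.83 and 8.14 TPM in the vehicle libraries and 5.86, 6.60 and 5.87 TPM in the kava libraries. All kava libraries lay below all vehicle libraries. NRG1 fell from 8.60 ± 0.403 to 6.11 ± 0.426 TPM (SD, n = 3), a ratio of 0.710 (log2 fold change -0.43 ± 0.0710 SE, limma adjusted p = 0.00347).

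**Figure D1:**
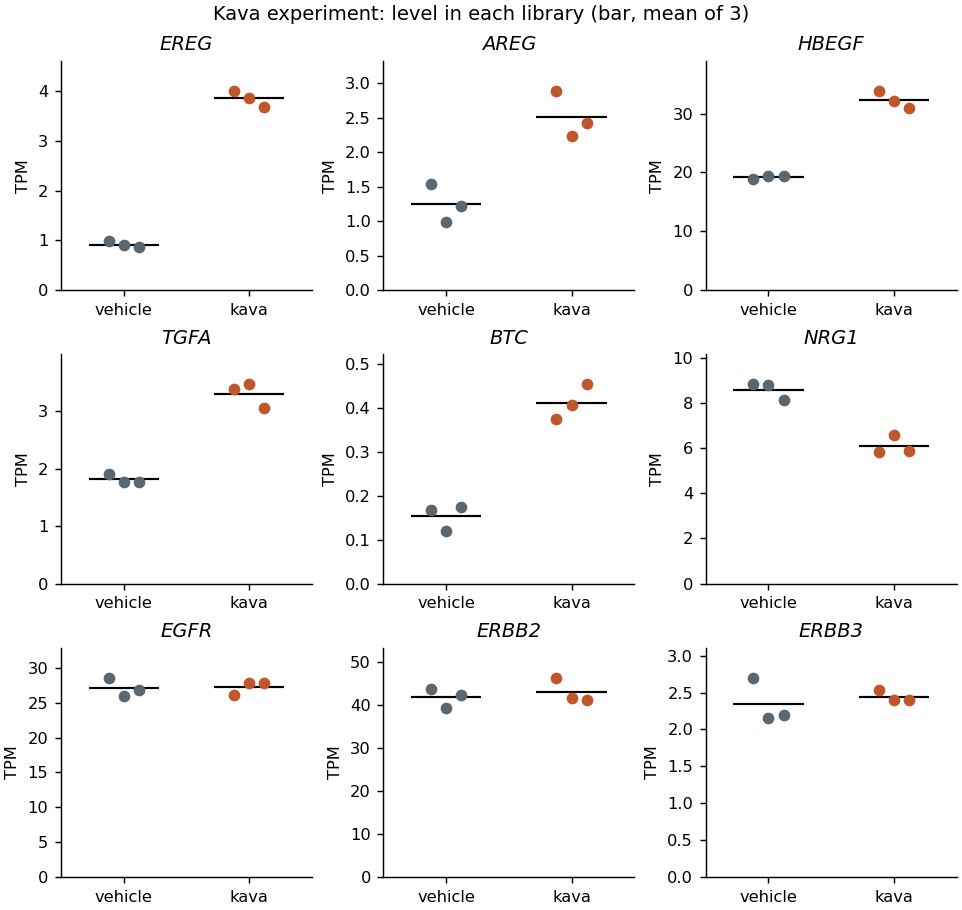
Level of each of the 9 members in TPM (vertical axis, linear, from 0, with a scale of its own for each gene) in the 3 vehicle and 3 kava libraries; points are libraries and bars are group means. The groups are apart for all 6 ligands, with NRG1 lower and the other ligands higher with kava, and overlap for the 3 receptors.

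The receptors showed no such shift. They are encoded on chromosome 7 (EGFR, ENSG00000146648), chromosome 17 (ERBB2, ENSG00000141736) and chromosome 12 (ERBB3, ENSG00000065361). EGFR was measured at 28.6, 26.0 and 26.8 TPM with vehicle and at 26.1, 27.8 and 27.8 TPM with kava, and the groups overlapped. Its fold change was 0.00 on the log2 scale (95% interval -0.12 to 0.13, limma adjusted p = 0.962). ERBB2, the co-receptor without a ligand of its own, stood at 43.6, 39.4 and 42.3 TPM with vehicle and at 46.3, 41.7 and 41.2 TPM with kava, again overlapping (log2 fold change 0.04, 95% interval -0.10 to 0.18, limma adjusted p = 0.639). ERBB3, the neuregulin receptor, stood at 2.70, 2.16 and 2.19 TPM with vehicle and at 2.53, 2.40 and 2.40 TPM with kava (log2 fold change 0.04, 95% interval -0.18 to 0.27, limma adjusted p = 0.771). These intervals leave room for modest changes in either direction. Reads of ERBB2 could be shared with MIEN1 and PGAP3, which overlap it on the opposite strand, and those of EGFR with EGFR-AS1, since no source used here says whether counting kept strand. MIEN1 stood at 63.9 TPM with vehicle and 69.4 TPM with kava and PGAP3 at 4.51 and 3.92 TPM, while EGFR-AS1 was listed at 0 in both groups.

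**Figure D2:**
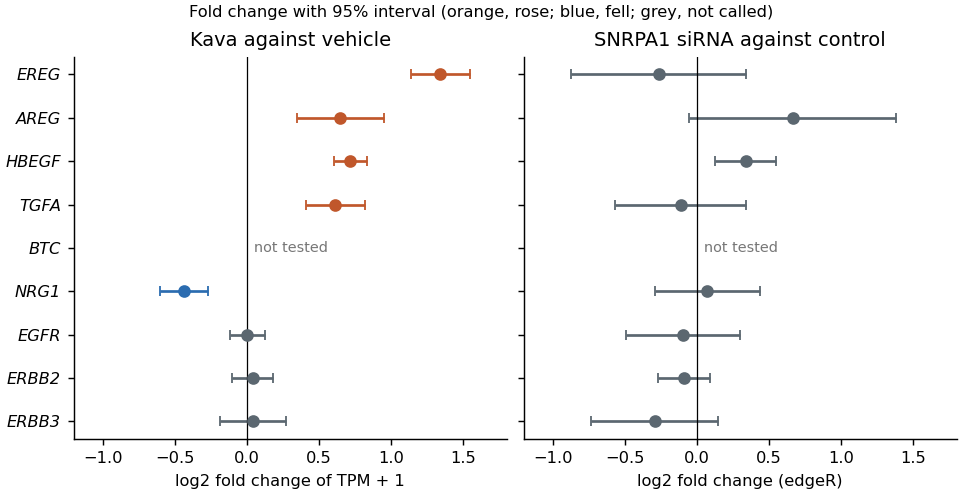
Log2 fold change of each member (points) with its 95% interval (bars) for kava against vehicle on the log2(TPM + 1) scale (left, limma) and for SNRPA1 siRNA against control siRNA (right, edgeR); orange marks members that rose, blue those that fell and grey those not called. With kava the ligands lie away from 0, from -0.43 for NRG1 to 1.34 for EREG, and the receptors at 0.00 to 0.04; in the knockdown no member was called, and BTC was tested in neither.

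The order of levels per length changed with kava. With vehicle the members ranked ERBB2, EGFR, HBEGF, NRG1, ERBB3, TGFA, AREG, EREG and BTC from high to low, and no neighbours in that order overlapped between libraries. With kava the order was ERBB2, HBEGF, EGFR, NRG1, EREG, TGFA, AREG, ERBB3 and BTC, where AREG and ERBB3 overlapped and the other neighbours did not. HBEGF had passed EGFR, and EREG had passed ERBB3, TGFA and AREG. Summed over the 6 ligands, the level was 31.9 ± 0.383 TPM with vehicle and 48.5 ± 2.00 TPM with kava (SD, n = 3), while the 3 receptors summed to 71.3 ± 3.67 and 72.7 ± 1.91 TPM. Ligand RNA per receptor RNA was 0.449 ± 0.0215 with vehicle and 0.666 ± 0.0148 with kava. Within the ligand sum, HBEGF held 60.2% with vehicle and 66.6% with kava, EREG 2.86% and 7.94%, and NRG1 26.9% and 12.6%. No test was run on these sums, which follow from the members already described.

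Relatives outside the 9 members were low. EPGN, an EGFR ligand encoded next to EREG, stood at 0.121, 0.118 and 0.109 TPM with vehicle and at 1.74, 2.24 and 1.74 TPM with kava. All vehicle libraries were near 0 and all kava libraries above 1 TPM. EPGN rose from 0.116 ± 0.00585 to 1.91 ± 0.288 TPM (SD, n = 3), a ratio of 16.4 on a vehicle mean near 0 (log2 fold change 1.38 ± 0.122 SE, limma adjusted p = 0.000224). However, EPGN passed the filter only through the kava group, and failed it when any 1 kava library was left out. NRG2 stood at 1.26 ± 0.143 TPM with vehicle and 1.87 ± 0.414 TPM with kava and was not called (log2 fold change 0.34, limma adjusted p = 0.0981), but was called without kava replicate 1 (limma adjusted p = 0.0300). NRG4, a ligand of ERBB4, was under the filter, at 0, 0.0725 and 0.255 TPM with vehicle and at 0.582, 0.416 and 0.597 TPM with kava, and like BTC was called higher without the filter (log2 fold change 0.47, limma adjusted p = 0.0340). EGF itself was under the filter at 0.131 ± 0.187 and 0.0791 ± 0.0252 TPM. NRG3 was listed at 0 in all 6 libraries, and ERBB4, the remaining receptor of the family, at 0 in the vehicle libraries and at no more than 0.00918 TPM with kava.

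EREG and AREG rose in a region that also holds chemokine genes. Of 21 genes listed within 1000 kb of the EREG start site, 8 outside the EGF family were tested in the kava comparison, of which 4 rose and 2 fell, against 16.3% higher and 15.6% lower over all genes. CXCL1, which attracts neutrophils, rose by 0.54 on the log2 scale (limma adjusted p = 5.98e-05), CXCL3 by 0.55 and CXCL5 by 0.24. AFP was called higher, at 1.204 TPM with vehicle and 2.32 TPM with kava (log2 fold change 0.63, limma adjusted p = 0.0492), a call lost on leaving out any library but vehicle replicate 1. CXCL6 fell by 0.57 (limma adjusted p = 0.000435) and MTHFD2L, which lies between the chemokine genes and EPGN, fell by 0.26, a call lost on leaving out any library but vehicle replicate 2. CXCL8 stood at 565 TPM with vehicle and 566 TPM with kava (log2 fold change 0.00), and CXCL2 was not called (0.11). The window was chosen after the data had been seen.

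**Figure D3:**
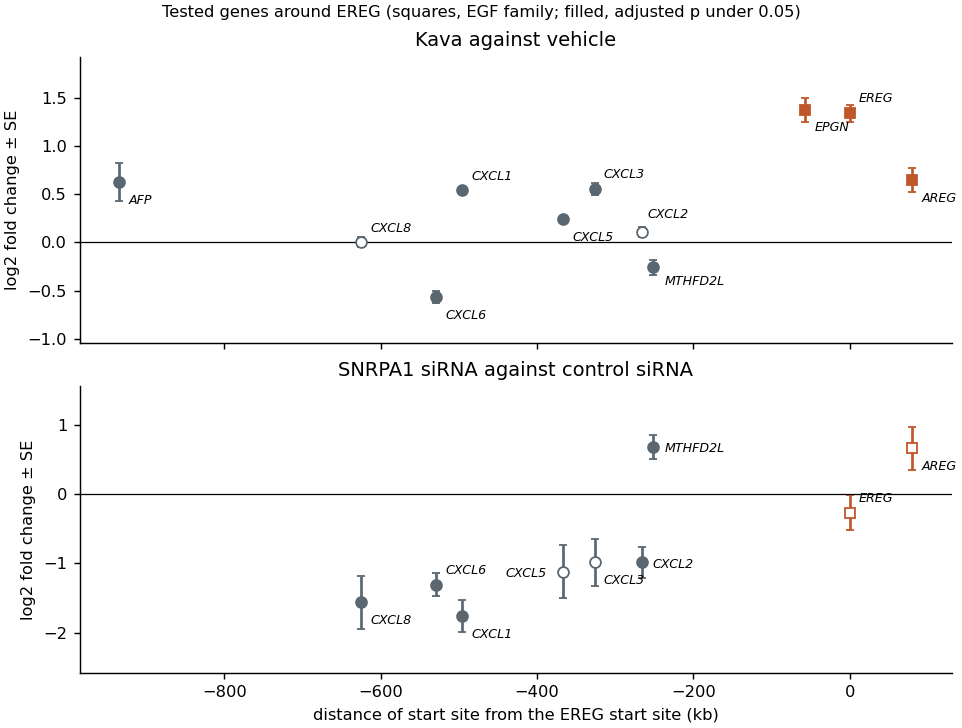
Log2 fold change ± SE of the tested genes around EREG by the distance of their start sites from that of EREG in kb; squares mark EGF family genes and filled points an adjusted p under 0.05. With kava EREG and AREG rose by 1.34 and 0.65 and EPGN by 1.38, and EREG and EPGN passed the filter only through the kava group. In the knockdown CXCL8, CXCL6, CXCL1 and CXCL2 fell, MTHFD2L rose, and CXCL5, CXCL3, EREG and AREG were not called.

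The release of ligands was followed by a list of its own. Of 11 genes for shedding proteases and their regulators, all tested, 5 rose and none fell (limma, adjusted over all genes), 45.5% against 31.9% of all genes, with a median log2 fold change of 0.08. The protease gene ADAM8 rose from 7.75 ± 0.455 TPM with vehicle to 15.1 ± 2.83 with kava (log2 fold change 0.86 ± 0.126 SE, limma adjusted p = 0.00216). RHBDF2 and RHBDF1 encode the inactive rhomboids iRhom2 and iRhom1, which carry the main sheddase ADAM17 to the cell surface. RHBDF2 rose from 12.6 ± 1.49 TPM to a level of 22.1 ± 0.169 (log2 fold change 0.77 ± 0.0805 SE, limma adjusted p = 0.000467) and RHBDF1 by 0.40. ADAM12 rose by 0.27. ADAM17 itself stood at 47.6 ± 1.68 TPM with vehicle and 47.2 ± 1.94 TPM with kava (log2 fold change -0.01, limma adjusted p = 0.856).

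Genes of the signalling chain below the receptors were called about as often as all tested genes, or less (31.9% over all genes). Of 20 genes for receptor adaptors and the RAS-MAPK cascade, 3 rose and 3 fell (30%), with a median of -0.07. GRB2, the adaptor that couples receptors to the RAS exchange factors, rose from 68.6 ± 4.49 TPM with vehicle to 92.1 ± 1.497 with kava (log2 fold change 0.42, limma adjusted p = 0.000971). RASA1, a RAS GTPase-activating protein, rose by 0.37, and the exchange factor SOS2 fell by 0.37. MAPK3, which encodes ERK1, fell by 0.19 (limma adjusted p = 0.0485), a call that held in 4 of 12 alternatives and was lost without kava replicates 2 or 3 or vehicle replicates 1 or 2, each left out alone. Of 16 genes of the PI3K, AKT, STAT, SRC and PLCG arm, 3 rose and 1 fell (25%), with a median of -0.01. PIK3CA and PIK3CB, catalytic subunits of PI3K, rose by 0.40 and 0.42. The regulatory subunit PIK3R1 rose by 0.45 (limma adjusted p = 0.0244), a call lost without kava replicates 2 or 3 or vehicle replicates 2 or 3, each left out alone (adjusted p up to 0.0813).

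Of 19 tested genes for receptor inhibitors and turnover, 3 rose and 4 fell (36.8%, near the 31.9% over all genes), with a median of 0.03. PTPN2, a tyrosine phosphatase that acts on EGFR, fell from 54.4 ± 1.63 TPM with vehicle to 30.4 ± 1.18 with kava (log2 fold change -0.82 ± 0.0461 SE, limma adjusted p = 2.80e-05). CBLB, a ubiquitin ligase for activated receptors, fell from 9.41 ± 0.774 TPM to a level of 5.80 ± 0.467 (log2 fold change -0.61). HGS, which sorts ubiquitinated receptors towards lysosomes, rose from 83.9 ± 3.18 TPM with vehicle to 135 ± 6.49 with kava (log2 fold change 0.68, limma adjusted p = 7.91e-05), and TNK2, a kinase that takes part in EGFR turnover, rose from 11.8 ± 0.571 TPM to a level of 19.7 ± 2.07 (log2 fold change 0.69).

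Most of the transcripts used elsewhere as a readout of MAPK pathway output were higher with kava. Of the 10 genes of that activity score 9 passed the filter and were tested, and 7 rose and none fell (77.8% against 31.9% of all genes), with a median log2 fold change of 0.66 against -0.01. Of these 7, SPRY4 passed the filter only through the kava group, at 0.961 TPM with vehicle and 2.09 TPM with kava. Without the filter all 10 were tested, and again 7 rose and none fell. ETV5, a transcription factor induced by ERK signalling, rose from 6.63 ± 0.223 TPM with vehicle to 18.1 ± 0.686 with kava (log2 fold change 1.32 ± 0.0563 SE, limma adjusted p = 9.25e-06). CCND1, which encodes cyclin D1, rose from 28.9 ± 1.71 TPM to a level of 65.6 ± 2.75 (log2 fold change 1.16 ± 0.0560 SE, limma adjusted p = 1.59e-05). DUSP6, the phosphatase that feeds back on ERK, rose from 2.32 ± 0.363 TPM to a level of 4.41 ± 0.226 (log2 fold change 0.71), and the receptor gene EPHA2 from 35.0 ± 0.121 to 57.1 ± 4.29 TPM (0.69). The tenth gene, EPHA4, was under the filter, at 1.10, 1.60 and 0.948 TPM with vehicle and 0.162, 0.380 and 0.673 TPM with kava, with no overlap, and was not called without the filter (log2 fold change -0.66, limma adjusted p = 0.0685). ETV4 was also below vehicle in all kava libraries, with means of 3.63 ± 0.199 and 3.03 ± 0.408 TPM, and was not called (limma adjusted p = 0.152). EPHA4 and ETV4 were named after their values were seen. No kinase activity was measured, and these genes also answer to other inputs.

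**Figure D4:**
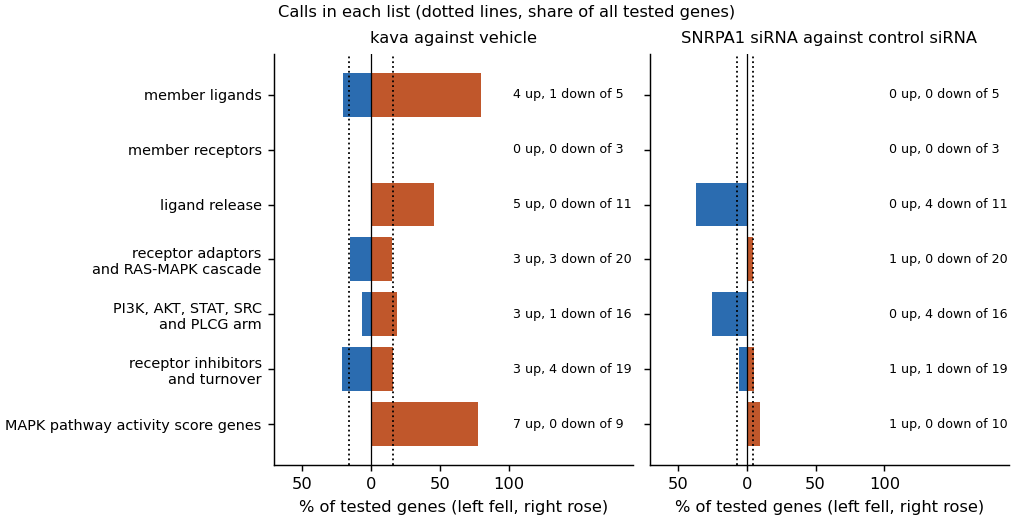
Share of tested genes of each list that rose (right, orange) or fell (left, blue) in each comparison, in percent, with the counts printed beside the bars; dotted lines mark the shares over all tested genes, 16.3% higher and 15.6% lower with kava and 4.89% and 7.29% in the knockdown. With kava 7 of 9 MAPK activity score genes and 5 of 11 release genes rose; in the knockdown 4 of 11 release genes and 4 of 16 genes of the PI3K arm fell.

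After SNRPA1 knockdown no member was called. Of 8 members tested, edgeR called 0 of them at an adjusted p under 0.05, against 12.2% of all 13772 tested genes, 4.89% higher and 7.29% lower, and 1 member, HBEGF, had an unadjusted p under 0.05. DESeq2 called 1 of 8, again HBEGF, against 3195 of all 13772 tested genes, 1427 higher and 1768 lower. Without control siRNA replicate 1, edgeR called 33.1% of 13729 genes, 16.2% higher and 16.9% lower, and 2 of the 8 members, HBEGF higher and EGFR lower. The median log2 fold change was 0.07 over the 5 ligands tested and -0.10 over the 3 receptors, against 0.00 over all genes. Marker sums with control and SNRPA1 siRNA were 385 to 473 and 435 to 459 FPKM for bronchial epithelium, 94.2 to 114 and 110.4 to 127 FPKM for fibroblasts and 16.2 to 20.4 and 13.3 to 14.7 FPKM for blood cells, and their part in the knockdown results was not tested.

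HBEGF was the tested ligand whose groups did not overlap. It was measured at 20.1, 20.4 and 19.6 CPM in control siRNA replicates 1, 2 and 3 and at 26.7, 25.0 and 24.3 CPM in SNRPA1 siRNA replicates 1, 2 and 3. All SNRPA1 siRNA libraries lay above all control libraries, as was the case for 18.3% of tested genes (38.7% were without overlap in either direction). The means were 20.1 ± 0.401 and 25.3 ± 1.25 CPM (SD, n = 3), a ratio of 1.26 (log2 fold change 0.34 ± 0.0910 SE, 95% interval 0.12 to 0.55, edgeR adjusted p = 0.0540). The adjusted p was 0.00314 with DESeq2 and 0.0207 with edgeR without control siRNA replicate 1, and over the 12 alternatives it ranged from 0.00314 to 0.210.

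The other ligands overlapped between groups or were too low to test. EREG stood at 3.07, 5.36 and 3.99 CPM in the control libraries and at 3.58, 2.76 and 4.00 CPM in the SNRPA1 siRNA libraries (log2 fold change -0.27 ± 0.257 SE, 95% interval -0.87 to 0.34, edgeR adjusted p = 0.529). AREG stood at 2.09, 1.34 and 1.87 CPM and at 1.82, 3.54 and 3.04 CPM, with SNRPA1 siRNA replicate 1 inside the control range (log2 fold change 0.66 ± 0.306 SE, 95% interval -0.05 to 1.38, edgeR adjusted p = 0.190). Each value of these 2 genes rested on 91 to 363 reads, and their intervals are wide. TGFA stood at 3.72, 4.58 and 4.48 CPM and at 4.56, 4.00 and 3.25 CPM (log2 fold change -0.11, edgeR adjusted p = 0.733). NRG1 stood at 4.67, 5.85 and 4.77 CPM and at 5.29, 5.42 and 5.37 CPM (log2 fold change 0.07, edgeR adjusted p = 0.789). Neither gene separated the groups. BTC had 12, 16 and 38 reads in the control libraries and 0, 9 and 0 reads in the SNRPA1 siRNA libraries, where a count of 0 allows up to 0.0467 CPM in replicate 1 and 0.0564 CPM in replicate 3 (3 counts, counting error only). The BTC groups did not overlap, and with no filter on low counts the gene was not called (edgeR adjusted p = 0.380).

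**Figure D5:**
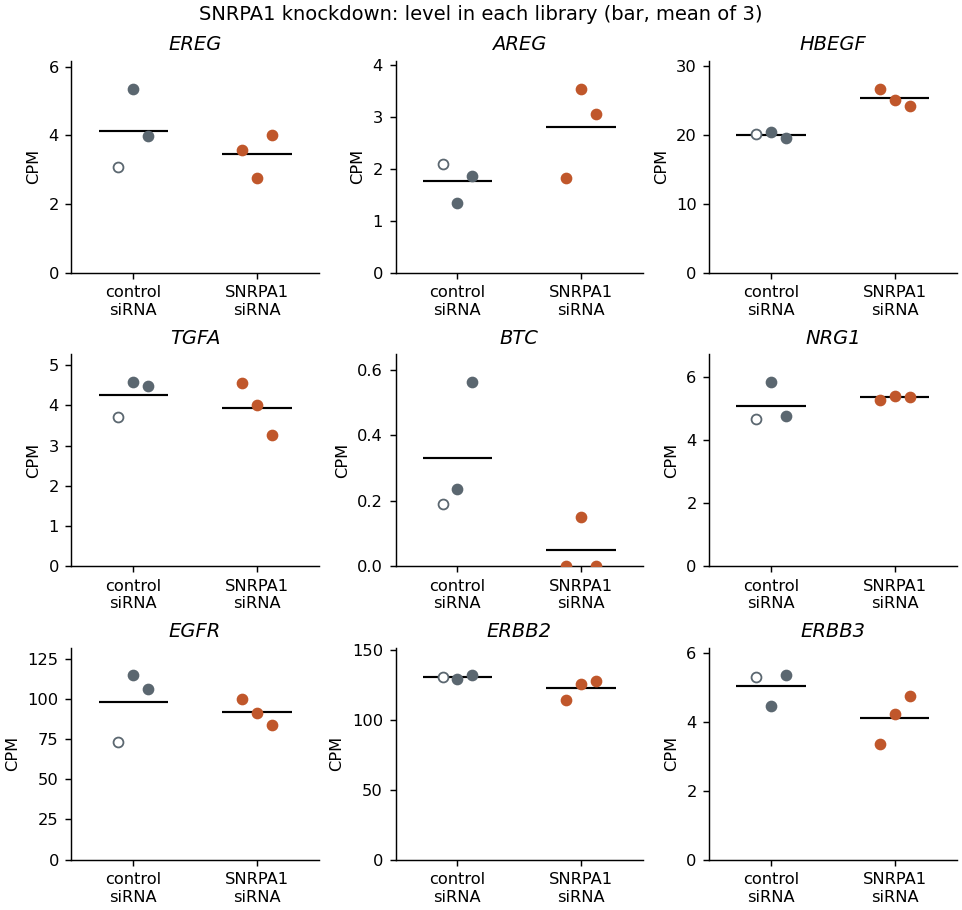
Level of each of the 9 members in CPM after TMM scaling (vertical axis, linear, from 0, with a scale of its own for each gene) in the 3 control siRNA and 3 SNRPA1 siRNA libraries; points are libraries, bars are group means and the open point is control siRNA replicate 1. HBEGF lies higher in all SNRPA1 siRNA libraries, at 24.3 to 26.7 CPM against 19.6 to 20.4 CPM, and the open point is the lowest EGFR value, at 73.4 CPM.

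Among the receptors, EGFR depended on the library that stood apart. It was measured at 73.4, 115 and 107 CPM in control siRNA replicates 1, 2 and 3 and at 99.9, 91.5 and 83.7 CPM in the SNRPA1 siRNA libraries. Control siRNA replicate 1 was the lowest of all 6 libraries and the other control libraries were the highest. The log2 fold change was -0.10 ± 0.168 SE with all libraries (95% interval -0.49 to 0.30, edgeR adjusted p = 0.730) and -0.27 without control siRNA replicate 1 (edgeR adjusted p = 0.0358). ERBB2 stood at 130.6, 129 and 132 CPM in the control libraries and at 114, 126 and 128 CPM in the SNRPA1 siRNA libraries, all of them below the controls, as for 20.4% of tested genes (log2 fold change -0.09 ± 0.0753 SE, edgeR adjusted p = 0.468). ERBB3 stood at 5.32, 4.46 and 5.35 CPM and at 3.36, 4.24 and 4.75 CPM, with overlap (log2 fold change -0.29 ± 0.188 SE, edgeR adjusted p = 0.336).

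The fold changes of the ligands in the comparisons can be set side by side. The log2 fold changes with kava and with SNRPA1 siRNA were 1.34 and -0.27 for EREG, 0.65 and 0.66 for AREG, 0.72 and 0.34 for HBEGF, 0.61 and -0.11 for TGFA and -0.43 and 0.07 for NRG1. The tables were scaled apart and the difference between the comparisons was not tested. SNRPA1 itself was 127 ± 2.99 TPM with kava against 151 ± 3.17 with vehicle (fold change -0.24 on the log2 scale, limma adjusted p = 0.00227), a much smaller shift than in the knockdown. In the window around EREG 9 genes were tested in the knockdown, EREG and AREG among them. Of the 7 outside the EGF family 1 rose and 4 fell, against 4.89% higher and 7.29% lower over all genes. CXCL1 fell by 1.76 on the log2 scale (edgeR adjusted p = 0.0105) and CXCL6 by 1.31. CXCL8 fell by 1.56 (edgeR adjusted p = 0.0439) and CXCL2 by 0.98 (edgeR adjusted p = 0.0343). MTHFD2L rose by 0.68 (edgeR adjusted p = 0.0467). CXCL5 and CXCL3 were not called (log2 fold changes -1.12 and -0.98, edgeR adjusted p = 0.102 and 0.101). EPGN was too low to test, at 0, 0 and 19 reads in the control libraries and 23, 6 and 3 reads in the SNRPA1 siRNA libraries.

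The same lists were counted in the knockdown. Of 11 release genes 0 rose and 4 fell (edgeR, 36.4% against 12.2% of all genes), with a median log2 fold change of -0.16. RHBDF2 fell from 37.7 ± 3.19 to 21.3 ± 0.423 CPM (log2 fold change -0.83 ± 0.0969 SE, edgeR adjusted p = 0.00969) and ADAM8 from 33.5 ± 0.898 to 20.3 ± 0.961 CPM (-0.72 ± 0.0890 SE, edgeR adjusted p = 0.0101), both of which had risen with kava. BACE1, a protease that cuts neuregulins, fell by 0.57, and FRMD8, which stabilises the iRhom-ADAM17 complex, by 0.33. Of 16 genes of the PI3K arm 0 rose and 4 fell (25%): MTOR by 0.65, PIK3R2 by 0.52, PLCG1 by 0.39 and AKT2 by 0.33. Of 20 adaptor and cascade genes GRB2 alone was called, higher by 0.29 (5%), of 19 inhibitor and turnover genes PTPN1 rose by 0.40 and HGS fell by 0.46 (10.5%), and of 10 MAPK activity score genes EPHA2 alone rose, from 154 ± 13.1 to 236 ± 13.4 CPM (log2 fold change 0.61 ± 0.0895 SE, edgeR adjusted p = 0.0133). Without control siRNA replicate 1, where 33.1% of all genes were called, 5 release genes (45.5%) and 9 genes of the PI3K arm (56.2%) fell, 3 cascade genes rose and 2 fell (25%), and 3 inhibitor genes rose and 4 fell (36.8%), the last 2 lists below or near that share. With any 1 SNRPA1 siRNA library left out edgeR called 0 genes in all, SNRPA1 included, at 2889 to 3267 genes with an unadjusted p under 0.05, and without control siRNA replicate 3 it called 15, with SNRPA1 but no gene of these lists or of the window around EREG among them. Without control siRNA replicate 2 it called 1060 of 13742 genes, 376 higher and 684 lower. In that fit 2 of 11 release genes and 2 of 16 genes of the PI3K arm fell. Of 19 inhibitor and turnover genes 2 rose and 1 fell, and of 10 MAPK activity score genes 1 rose. None of the 20 adaptor and cascade genes was called.

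Per length, the ligand order in the siRNA table was led by the same gene. In FPKM, read counts scaled by the authors for gene length and library size, the control siRNA libraries ranked ERBB2 (11.7 ± 0.432), HBEGF (6.19 ± 0.267), EGFR (5.72 ± 1.46), AREG (0.988 ± 0.186), TGFA (0.800 ± 0.115), EREG (0.671 ± 0.206), ERBB3 (0.390 ± 0.0347), NRG1 (0.219 ± 0.0348) and BTC (0.111 ± 0.0709; SD, n = 3). HBEGF overlapped EGFR, AREG overlapped TGFA, TGFA overlapped EREG and NRG1 overlapped BTC. NRG1 thus ranked 8 of 9 here and 4 of 9 in TPM with vehicle. Its FPKM values correspond to a gene length of 23735 bases, against 11328 bases in the union of its GENCODE exons, and the part of this in its rank was not tested.

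The genes with the nearest profiles to EREG, AREG and EGFR across all 12 libraries were listed. Likeness was the Euclidean distance between profiles of log2 values centred on the control group of each table, over 12703 genes tested in both comparisons. Nearest to EREG were ANKH (distance 0.424), which encodes a pyrophosphate transporter, ESM1 (0.555), which encodes the proteoglycan endocan, and TGM2 (0.563), a transglutaminase. ANKH went from 2.28 to 7.44 TPM with kava (log2 fold change 1.36) and had a log2 fold change of -0.19 in the knockdown. Nearest to AREG were the amino acid transporter SLC7A5 (0.539), ISL2 (0.618) and the tubulin gene TUBA4A (0.644). Nearest to EGFR, whose own values were flat with kava, were WDR26 (0.136), KIF11 (0.149) and CYP1B1 (0.150). These distances are descriptions over libraries of which 6 share a table and a scaling. Some gene is always nearest, and no background distance is given, so how close these profiles are was not tested.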

How the data were processed

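Polyadenylated RNA of BEAS-2B cells was sequenced in 12 libraries, and the members and gene lists described here were chosen with earlier results of these data known. The deposited kava table holds TPM per gene, scaled to the same sum in each library. The deposited siRNA table holds a read count and FPKM per gene per the file headers. HISAT2 2.0.4, StringTie 1.3.4d, cutadapt 1.9, DESeq2 and hg38 are listed without roles per the submitters' processing notes, and the name of the kava table mentions salmon, so the steps behind each table are not given in the sources used here. The siRNA FPKM column that lacks its prefix was assigned by the sample title.

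The kava and vehicle libraries were tested with limma 3.58.1 (R 4.3.3; eBayes with trend, log2(TPM + 1), mean of 1 TPM or more). The knockdown was tested with the edgeR 4.0.16 quasi-likelihood test with TMM scaling on counts (mean of at least 1 CPM), and with DESeq2 1.42.0 as an alternative. Tests were two-sided and adjusted by Benjamini-Hochberg over all tested genes; the tests were tried on simulated data. With 3 libraries a group an exact permutation test could not go below 0.10. The SE of an edgeR fold change is its size over the square root of F. Floors and intervals from counts cover counting error only.

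Named genes are the 9 members, SNRPA1, the relatives, up to 4 called genes of each list a comparison, by size of change, and the 3 nearest profiles of EREG, AREG and EGFR; some items of these lists are not reported here. ADAM17, EPHA4, ETV4 and the neighbours of EREG were chosen after their values were seen. Promoters came from RefSeq (GRCh38.p14).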

Additional observations from a re-analysis of the deposited data

How the results depend on the processing

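With kava the same 5 members were called in all 12 alternatives, and with no filter BTC made 6. Their log2 fold changes ranged from 1.32 to 1.96 for EREG, 0.56 to 0.97 for AREG, 0.68 to 0.75 for HBEGF, 0.59 to 0.83 for TGFA and -0.49 to -0.41 for NRG1. The count over all genes, 4429, ranged from 3155 to 4423 over the alternatives. The counts of release genes (5 higher) and MAPK activity score genes (7 higher) were also the same in all 12.

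In the knockdown the count over all genes was 1677 with edgeR, 3195 with DESeq2 and 669 without a filter on low counts. DESeq2 called 1 member. With 1 library left out the count over all genes ranged from 0 to 4546 and that of members from 0 to 2. It was 4546 without control siRNA replicate 1, 1060 without control siRNA replicate 2, 15 without control siRNA replicate 3 and 0 without any of the SNRPA1 siRNA libraries. SNRPA1 was called in 3 of these 6 fits. Limma on FPKM called 394 genes higher and 1245 lower, against 673 and 1004 with edgeR, and tested 4 of the members. Each fit that leaves a library out has fewer samples, and the causes of these differences were not tested.

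Replicate numbers are shared between groups but did not pair the libraries: the correlation of deviations between same-numbered libraries was -0.0155, -0.112 and 0.0934 in the kava table and -0.375, 0.00148 and -0.187 in the siRNA table. With a replicate block, limma called 3954 genes and 5 members with kava, and edgeR called 0 genes and 0 members in the knockdown, with 2919 genes at an unadjusted p under 0.05.

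The low ligands EREG and AREG rested on 91 to 363 reads a library in the siRNA table, and the depth of the kava libraries is unknown. The part of depth in the spread of these ligands was not tested.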

Other observations

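In the knockdown libraries the 6 ligands summed to 8.98 ± 0.470 FPKM with control siRNA and 10.5 ± 0.322 FPKM with SNRPA1 siRNA (SD, n = 3), and the 3 receptors to 17.8 ± 1.86 and 15.9 ± 0.175 FPKM. Ligand RNA per receptor RNA was 0.540, 0.492 and 0.489 in control siRNA replicates 1, 2 and 3 and 0.672, 0.662 and 0.641 in SNRPA1 siRNA replicates 1, 2 and 3. The groups did not overlap in this ratio, as was also the case for 38.7% of single tested genes. The receptor sum of control siRNA replicate 1, at 15.6 FPKM, lay below the 15.8 to 16.1 FPKM of the SNRPA1 siRNA libraries. HBEGF held 69.0% of the ligand sum with control siRNA and 71.6% with SNRPA1 siRNA, and EREG 7.41% and 5.07%. No test was run on these sums. NRG4, a ligand of ERBB4, had 17, 10 and 16 reads in the control libraries and 19, 21 and 32 reads in the SNRPA1 siRNA libraries, while ERBB4 had 0 reads in all 6, which allows no more than 3 counts a library (counting error only).

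CD68, a lysosomal protein listed among the blood cell markers, stood at 13.4 TPM with vehicle and 25.5 TPM with kava, and at 9.50 and 4.96 FPKM with control and SNRPA1 siRNA, while CD14 stood at 7.29 and 7.795 TPM and at 8.53 and 8.85 FPKM. KRT19 stood at 23.5 TPM with vehicle and 0.705 TPM with kava, in contrast with KRT7 at 192 and 406 TPM.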
